A study of Homo sapiens with 18 samples.

Results

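The response of HCC1937-OE-BRCA1 cells to 24 h of the PARPi olaparib was read from 6 of the 18 RNA-seq libraries of the series, namely all 3 libraries of this line at 24 h and all 3 at 0 h. HCC1937 is a human breast cancer cell line of basal type that carries mutated BRCA1. The study describes HCC1937-OE-BRCA1 as this background with transfected wild-type BRCA1, in both groups compared. The treated cells received 10 µmol/L olaparib, and the 0 h cells were described by the study as untreated although their labels also name olaparib as the treatment. The remaining libraries are 3 of the same line at 12 h and 3 each at 0 h, 12 h and 24 h labelled HCC1937-EV, the line with an empty vector, whose genotype the labels give as wild type. The sources used here do not say whether the line is 1 clone. They also do not say whether replicates came from separate cultures, so p-values measure the spread between these libraries, which may be technical. Of the 35044 genes in the table, 18335 had enough counts to be tested.

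PARP enzymes attach ADP-ribose to proteins at DNA breaks, and olaparib blocks the catalytic site of PARP1 and PARP2 and holds them on DNA. Cells sense misplaced RNA through RIG-I-like receptors that signal through MAVS, and misplaced DNA through cGAS and STING, and both routes use the kinase TBK1 and the factor IRF3 to switch on type I and type III interferons. Secreted interferon acts through JAK kinases and a STAT and IRF9 complex that binds a short element in the promoters of interferon-stimulated genes, among them the IFIT, OAS and MX antiviral proteins. The study asked whether a PARPi sets off such a response in tumour cells and whether BRCA1 matters for it.

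Total counts of the 6 libraries lay between 15708622 and 16732025, and mitochondrial genes took between 4.99% and 6.28% of them. The basal epithelial markers listed for the line (EPCAM, CDH1, KRT5, KRT14, KRT17, KRT6B, EGFR and LAMB3) were all above 1 CPM in these libraries. In the libraries labelled HCC1937-EV part of these markers went against the label and part did not. EGFR lay between 139 and 202 CPM there, LAMB3 between 65.7 and 112 CPM and KRT17 between 1.86 and 5.97 CPM. Against the label, EPCAM had 1 count and KRT6B 0 counts in all 9 libraries together. KRT14 had 3 counts, KRT5 8 and CDH1 115 in the same 9 libraries. A difference between the lines can therefore not be assigned to BRCA1 alone. The count of the targeted gene hardly bore out the label before treatment, since untreated BRCA1 lay between 122 and 166 CPM in HCC1937-OE-BRCA1 and between 111 and 126 CPM in HCC1937-EV. Untreated replicate 1 stood apart from untreated replicates 2 and 3. The deviation of its genes from the mean of the line had a Spearman correlation of -0.58 with GC content across 14639 genes, against 0.29 and 0.54 in the other two and -0.29, -0.39 and -0.44 in the 24 h libraries. Genes are not independent replicates, and these correlations describe the libraries. Where list counts moved clearly with this library or with GC content, they are also given without them.

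At 24 h most antiviral interferon-stimulated genes were higher than in the untreated libraries, and part of the mitosis and ribosomal protein genes were lower by smaller amounts. No call of a ribosomal protein gene held in every fit that left out 1 library. In all, 864 genes were higher (4.71% of the genes tested) and 651 were lower (3.55%) by edgeR's quasi-likelihood test at a Benjamini-Hochberg adjusted p under 0.05, of which 757 and 601 were protein-coding. The median log2 fold change was 0.70 among the higher and -0.56 among the lower genes, and 236 and 66 of them passed an absolute log2 fold change of 1. Of the called genes 858 higher and 613 lower ones had no overlap of the 3 treated with the 3 untreated values, where 23.8% of all genes tested had none.

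With each library corrected for its trend on GC content and gene length the counts were 1340 higher (7.42%) and 1693 lower (9.37%), which turns the split from mostly higher to mostly lower. Of the 864 and 651 calls, 812 and 634 were kept. Leaving out untreated replicate 1 gave 1572 genes higher (8.35%) and 1757 lower (9.33%). The counts were 472 and 266 without untreated replicate 2 and 561 and 355 without untreated replicate 3. Without 24 h replicate 1, 2 or 3 they were 504 and 308, 489 and 298, and 428 and 216. Calls that held in all 6 of these fits numbered 350 higher and 171 lower. For a named gene whose call was lost in some of these fits, the number of the 6 that kept it is given as "kept in". Genes named for the largest rises and falls had to show no overlap and to keep their call in all 6 fits. For these genes both traits are conditions of the choice and no further result.

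**Figure D1:**
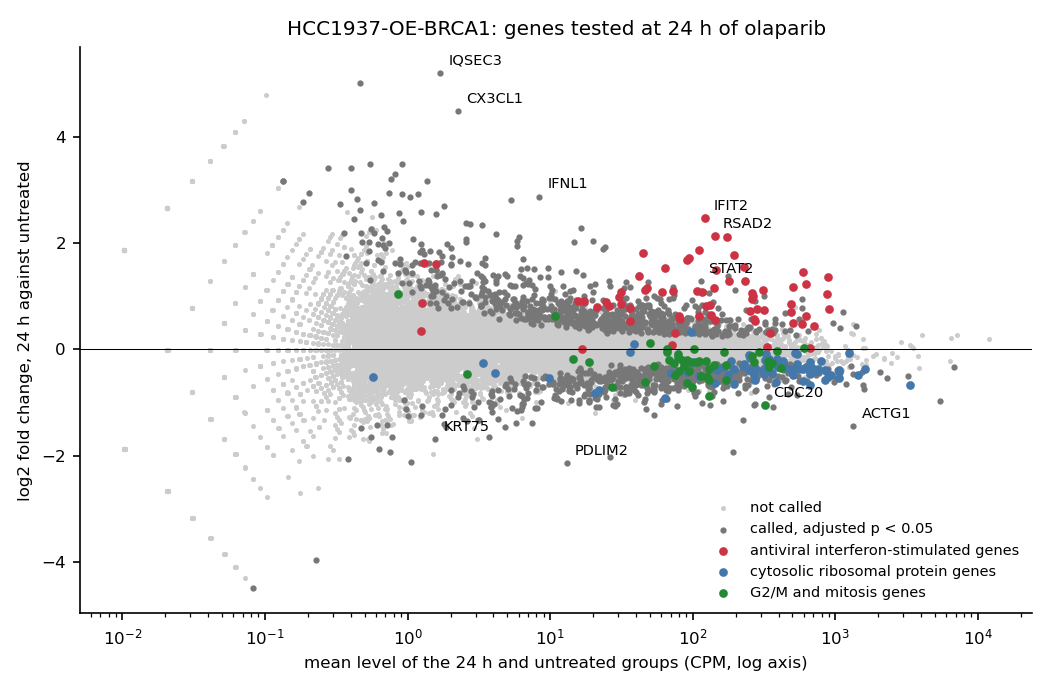
Each point is a gene tested; the x axis gives its mean level in CPM on a log axis and the y axis its log2 fold change at 24 h against untreated HCC1937-OE-BRCA1. Antiviral interferon-stimulated genes (red) sit above 0 at all levels, with IFIT2 at 2.46. Ribosomal protein genes (blue) and mitosis genes (green) lie mostly just below 0, and ACTG1 lies at -1.44.

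The antiviral interferon-stimulated genes and the chemokines were the lists with the highest medians. Of 70 listed genes 69 were tested, and 61 rose and 0 fell, against 4.71% and 3.55% of all genes. All 69 had a positive log2 fold change, with a median of 0.91 against 0.024 over all genes. Of these calls, 54 held in all 6 fits that left out 1 library. The count was 62 higher and 0 lower after the GC and length correction and 59 higher and 0 lower without untreated replicate 1. The antiviral median was then 0.88 and 0.99, and the chemokine median, 0.87 before, was 0.90 and 1.01. With only the 9 libraries of the line it was 59 higher and 0 lower, where 4.53% and 4.65% of all genes were called.

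IFIT2, which binds foreign RNA and blocks its translation, rose most of the list. It measured 42.9, 36.1 and 33.8 CPM in the untreated libraries and 200.1, 216 and 206 CPM at 24 h. IFIT2 had a log2 fold change of 2.46 (SE 0.12, edgeR adjusted p = 3.79e-11). IFIT3, its partner protein, measured 72.1, 67.3 and 58.1 CPM in the untreated libraries and 277, 281 and 291 CPM at 24 h and had a log2 fold change of 2.104 (SE 0.12, edgeR adjusted p = 5.30e-10). IFIT1, which recognizes RNA caps that lack 2′-O-methylation, measured 105, 91.98 and 70.3 CPM in the untreated libraries and 295, 308 and 305 CPM at 24 h and had a log2 fold change of 1.76 (SE 0.13, edgeR adjusted p = 2.01e-08). In each of these neighbours on chromosome 10 every treated library stood above every untreated one, as the rule on the largest changes requires.

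RSAD2 encodes viperin, an enzyme that makes a chain-terminating nucleotide. RSAD2 measured 56.5, 49.2 and 53.8 CPM in the untreated libraries and 216, 246 and 235 CPM at 24 h (log2 fold change 2.13, SE 0.10, edgeR adjusted p = 5.63e-09). HERC5, the ligase that attaches ISG15 to new proteins, measured 54.9, 47.8 and 40.6 CPM in the untreated libraries and 162, 185 and 176 CPM at 24 h (log2 fold change 1.87, SE 0.11, edgeR adjusted p = 1.58e-09). OAS1, which makes the 2-5A messenger that activates RNase L, measured 133, 143 and 132 CPM in the untreated libraries and 328, 323 and 343 CPM at 24 h (log2 fold change 1.29, SE 0.082, edgeR adjusted p = 2.49e-09). The groups of these genes did not overlap either, which was a condition for naming RSAD2 and HERC5 among the largest rises. The spread within a group was small against the rise.

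Of the members that encode signalling proteins, TNFSF10 (the death ligand TRAIL) rose from 43.3 ± 7.202 to 139 ± 5.62 CPM and had a log2 fold change of 1.68. LGALS9, the lectin galectin-9, rose from 29.02 ± 4.77 to 62.8 ± 2.77 CPM with 1.11. The list also holds PARP9, PARP12 and PARP14, described below with their family. In all, 8 tested members did not pass the test. Among them are IFI6, IFI27 and BST2, named here after their values were seen, whose log2 fold changes were 0.44, 0.042 and 0.015.

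**Figure D2:**
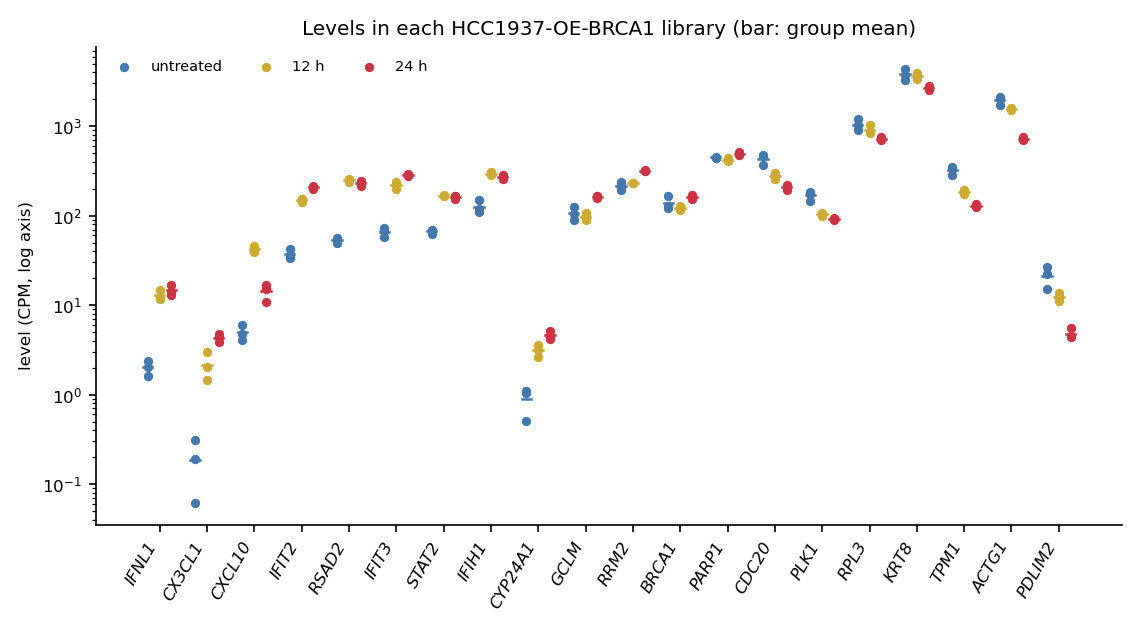
The y axis gives the level in CPM on a log axis of 20 named genes in each HCC1937-OE-BRCA1 library, untreated (blue), at 12 h (yellow) and at 24 h (red), and the short bars are group means. RSAD2 stood at 12 h near its 24 h level, and CXCL10 stood higher at 12 h. ACTG1 and PDLIM2 fell further from 12 h to 24 h.

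The promoters of the antiviral genes were searched for the letters of the interferon-stimulated response element, GAAA followed after any 2 bases by GAAA. Both strands of RefSeq windows on GRCh38.p14 were read, from 250 bases before to 50 bases after each start. Among genes with such a window, 33 of 46 members that rose held a match, as did 4 of 5 other tested members. A match was also found in 14.04% of all genes that were higher, 1.62% of those that were lower and 3.91% of all genes tested. A match describes the letters only. Stretches of IFIT3 and HERC5 are shown because, of the members with the smallest adjusted p, these had matches. Capitals mark the matched letters, which read GAAA on the opposite strand. The windows of OAS1 and IQSEC3 held no match, and IFIT2 is named only.
IFIT3 promoter, GRCh38.p14 chr10:89327791-89327893, + strand: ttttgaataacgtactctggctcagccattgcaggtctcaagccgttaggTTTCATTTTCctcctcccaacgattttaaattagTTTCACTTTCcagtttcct
IFIT3 promoter, GRCh38.p14 chr10:89332385-89332483, + strand: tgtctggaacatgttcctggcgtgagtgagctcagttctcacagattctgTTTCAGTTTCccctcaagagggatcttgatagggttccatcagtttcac
HERC5 promoter, GRCh38.p14 chr4:88456944-88457053, + strand: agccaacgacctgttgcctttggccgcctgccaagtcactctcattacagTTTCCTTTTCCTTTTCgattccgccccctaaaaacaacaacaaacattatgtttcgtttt
The matches shown in HERC5 overlap each other.

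Type III interferon transcripts rose, while no receptor transcript passed the test. Of 15 listed interferons and receptors 11 were tested, and 4 rose and 0 fell. IFNL1, a ligand of the IFNLR1 and IL10RB receptor, measured 1.601, 2.03 and 2.39 CPM in the untreated libraries and 16.9, 14.2 and 13.1 CPM at 24 h, with no overlap. IFNL1 had a log2 fold change of 2.87 (SE 0.21, edgeR adjusted p = 8.17e-07). IFNL2 measured 0.554, 0.0616 and 0.252 CPM in the untreated libraries and 1.29, 1.54 and 1.901 CPM at 24 h (log2 fold change 2.41, SE 0.53, edgeR adjusted p = 0.0122, kept in 3 of 6). IFNL3 measured 0.554, 0.370 and 0.693 CPM in the untreated libraries and 1.66, 1.72 and 1.72 CPM at 24 h (log2 fold change 1.64, SE 0.38, edgeR adjusted p = 0.0149, kept in 3 of 6). Both encode nearly identical sequences, so reads could be split between them. IFNB1, the type I interferon of non-immune cells, rested on 8 counts in the untreated and 38 in the 24 h libraries. IFNB1 had a log2 fold change of 2.18 (SE 0.56, edgeR adjusted p = 0.0286, kept in 0 of 6), and the highest edgeR adjusted p was 0.126 in the fits that left out 1 library. The receptor genes IFNLR1, IL10RB, IFNAR1, IFNAR2, IFNGR1 and IFNGR2, named after their values were seen, had log2 fold changes between -0.33 and 0.23 and no call.

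Chemokines that attract T cells, NK cells and monocytes rose from low levels. Of 20 listed chemokines 13 were tested, and 6 rose and 1 fell (median log2 fold change 0.87). CX3CL1 (fractalkine, chr16:57372458-57385048), which is made as a membrane-bound chemokine, measured 0.0616, 0.308 and 0.189 CPM in the untreated libraries and 4.73, 4.36 and 3.86 CPM at 24 h. These values rest on 9 and 211 counts, and CX3CL1 had a log2 fold change of 4.48 (SE 0.47, edgeR adjusted p = 1.32e-05). The interferon-induced CXCR3 ligand CXCL10 measured 5.97, 4.81 and 4.09 CPM in the untreated libraries and 15.3, 16.6 and 10.97 CPM at 24 h (log2 fold change 1.53, SE 0.22, edgeR adjusted p = 2.88e-04). Its relative CXCL11 had a log2 fold change of 2.08 (edgeR adjusted p = 7.61e-04) and the neutrophil chemokine CXCL1 one of 1.44 (edgeR adjusted p = 6.05e-04). Each of these chemokines was higher in every treated library than in any untreated one. CCL5, another chemokine of the interferon response, measured 11.3, 8.01 and 28.8 CPM in the untreated libraries and 28.5, 17.9 and 16.4 CPM at 24 h. Its ranges overlapped (log2 fold change 0.39, SE 0.39, edgeR adjusted p = 0.597).

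Inflammatory cytokines had few counts. Of 20 listed, 13 were tested, and 4 rose and 0 fell. IL1A rose from 0.723 ± 0.183 to 2.58 ± 0.164 CPM (log2 fold change 1.82, SE 0.37, edgeR adjusted p = 0.00401). The receptor antagonist IL1RN rose from 6.02 ± 0.350 to 10.97 ± 0.733 CPM (log2 fold change 0.86, SE 0.16, edgeR adjusted p = 0.00416). IL6 rose from 1.82 ± 0.585 to 4.71 ± 0.796 CPM (log2 fold change 1.37, SE 0.31, edgeR adjusted p = 0.0111, kept in 3 of 6), and LIF had a log2 fold change of 0.56, kept in 1 of 6.

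Among the NF-kB genes, which drive many cytokines, 2 of 19 tested members rose and 3 fell (median log2 fold change -0.093). NFKB2, the p100 precursor subunit, fell from 53.3 ± 8.45 to 29.3 ± 1.91 CPM (log2 fold change -0.86, SE 0.13, edgeR adjusted p = 1.47e-04). NFKBIB, an inhibitor of the pathway, fell with it (-0.77, kept in 5 of 6). NFKBIZ, an atypical IkB protein (0.57, kept in 4 of 6) and the deubiquitinase CYLD (0.50, kept in 4 of 6) rose, the latter with an edgeR adjusted p of 0.0656 after the GC and length correction.

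Most sensors of nucleic acids rose. Of 19 tested sensors and adaptors 11 rose and 1 fell, and the median log2 fold change was 0.57. IFIH1 (MDA5, a sensor of long double-stranded RNA, chr2:162267079-162318703) measured 148, 118 and 109 CPM in the untreated libraries and 257, 276 and 282 CPM at 24 h (log2 fold change 1.12, SE 0.14, edgeR adjusted p = 2.43e-05). RIGI, the sensor of short RNA with a 5′ triphosphate, measured 4.74, 2.65 and 4.66 CPM in the untreated libraries and 11.3, 10.9 and 11.96 CPM at 24 h (log2 fold change 1.501, SE 0.26, edgeR adjusted p = 8.75e-04). Neither sensor overlapped between the groups.

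ZBP1, a sensor of Z-form nucleic acid that can start necroptosis, rose from 0.830 ± 0.483 to 4.297 ± 0.407 CPM (log2 fold change 2.36, SE 0.38, edgeR adjusted p = 8.30e-04). The endosomal RNA sensor TLR3 rose from 15.03 ± 3.703 to 36.6 ± 4.25 CPM (log2 fold change 1.28, SE 0.19, edgeR adjusted p = 1.86e-04). The DNA sensor IFI16 rose from 86.97 ± 22.8 to 194 ± 4.08 CPM (log2 fold change 1.16, SE 0.15, edgeR adjusted p = 2.62e-05). The helicase ZNFX1 had a log2 fold change of 0.97 (edgeR adjusted p = 9.45e-07). STING1, the adaptor below cGAS, rose from 15.7 ± 4.57 to 25.4 ± 1.696 CPM (log2 fold change 0.70, SE 0.17, edgeR adjusted p = 0.0122, kept in 5 of 6). Every treated library stood above every untreated one in these genes too.

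Of the signalling and splicing genes named for the study's question, MAVS, CGAS, TBK1, IRF3 and NCOR1 did not pass the test. The study assayed aggregation of MAVS, protein and phosphorylation of TBK1 and IRF3, and an exon skipping event of NCOR1. RNA counts per gene measure none of these. MAVS, the adaptor of the RNA sensors, measured 179, 157 and 197 CPM in the untreated libraries and 171, 169 and 188 CPM at 24 h (log2 fold change -0.012, SE 0.099, edgeR adjusted p = 0.976). CGAS, the DNA sensor, measured 89.9, 80.8 and 65.5 CPM in the untreated libraries and 79.7, 84.2 and 76.8 CPM at 24 h (log2 fold change 0.028, SE 0.13, edgeR adjusted p = 0.943). TBK1, the kinase below both, measured 44.9, 32.2 and 28.8 CPM in the untreated libraries and 42.5, 45.4 and 42.9 CPM at 24 h (log2 fold change 0.30, SE 0.16, edgeR adjusted p = 0.270). IRF3, its substrate, measured 116, 183 and 188 CPM in the untreated libraries and 131, 136 and 126 CPM at 24 h (log2 fold change -0.31, SE 0.16, edgeR adjusted p = 0.261). NCOR1, a corepressor that binds nuclear receptors, measured 142, 83.1 and 113 CPM in the untreated libraries and 113, 103 and 139 CPM at 24 h (log2 fold change 0.064, SE 0.16, edgeR adjusted p = 0.862). The groups overlapped in all of these genes. Without untreated replicate 1 TBK1 was called with a log2 fold change of 0.51 (edgeR adjusted p = 0.0265) and IRF3 with one of -0.50 (edgeR adjusted p = 0.0186).

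Part of the genes below the interferon receptors rose. In the JAK-STAT and IRF list 9 of 18 tested members rose and 0 fell (median log2 fold change 0.52). STAT2, a subunit of the complex that binds interferon-stimulated genes, measured 67.8, 62.8 and 69.4 CPM in the untreated libraries and 154, 165 and 167 CPM at 24 h (log2 fold change 1.28, SE 0.084, edgeR adjusted p = 2.77e-09). IRF1, an interferon-induced activator, rose from 42.2 ± 1.99 to 77.1 ± 4.01 CPM (log2 fold change 0.87, SE 0.099, edgeR adjusted p = 7.38e-06). USP18, which removes ISG15 and dampens the receptor, rose from 84.6 ± 3.57 to 175 ± 4.09 CPM (log2 fold change 1.05, SE 0.098, edgeR adjusted p = 5.44e-07). None of these genes overlapped between the groups.

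Of 26 tested antigen presentation genes 4 rose and 0 fell (median log2 fold change 0.26), and after the GC and length correction the count was 8 higher and 0 lower. Without untreated replicate 1 it was 6 higher and 1 lower. Of all genes, 7.42% were higher and 9.37% lower under the first setting and 8.35% and 9.33% under the second. The class I activator NLRC5 rose from 99.5 ± 8.897 to 157 ± 5.11 CPM (log2 fold change 0.66, SE 0.096, edgeR adjusted p = 1.46e-04). The class II activator CIITA had a log2 fold change of 0.93, kept in 5 of 6. The endoplasmic reticulum aminopeptidases ERAP1 (0.53) and ERAP2 (0.75), which trim peptides for class I, were the others.

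For checkpoint ligands and tryptophan catabolism, 6 of 13 tested members rose and 0 fell (median log2 fold change 0.38). WARS1, the tryptophanyl-tRNA synthetase induced by interferon, measured 409, 407 and 371 CPM in the untreated libraries and 766, 774 and 748 CPM at 24 h (log2 fold change 0.95, SE 0.081, edgeR adjusted p = 1.37e-07). IDO1, which breaks down tryptophan, rose from 0.764 ± 0.245 to 3.03 ± 1.11 CPM (log2 fold change 1.97, SE 0.36, edgeR adjusted p = 0.00362). VTCN1 (B7-H4) had a log2 fold change of 0.46, kept in 1 of 6. In the complement list 3 of 15 tested members rose and 0 fell (median log2 fold change 0.26). The protease C1S rose from 28.8 ± 3.08 to 69.02 ± 4.44 CPM (log2 fold change 1.26, SE 0.11, edgeR adjusted p = 1.28e-07), and the others were its partner C1R (0.92) and the component C5 (0.72, kept in 2 of 6).

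Leukocyte markers moved with these immune genes. Of 7 listed 4 were in the table, and their summed level lay between 34.5 and 48.5 CPM untreated and between 72.5 and 87.2 CPM at 24 h. Nearly all of it was CD14, while PTPRC was at 1.09 and 1.23 CPM. Endothelial markers, 4 of 5 in the table, summed to between 17.4 and 20.3 and then between 24.4 and 25.7 CPM. These went opposite ways, with mean PECAM1 at 10.5 and then 19.8 CPM and CDH5 at 7.45 and then 4.77 CPM. The part of other cells in these results was not tested, and in bulk RNA fewer cells of a type and less RNA per cell cannot be told apart.

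Part of the cell death genes rose. In that list 8 of 25 tested members rose and 0 fell (median log2 fold change 0.31). CASP10, an initiator caspase of death receptors, rose from 2.403 ± 0.445 to 5.91 ± 0.941 CPM (log2 fold change 1.298, SE 0.23, edgeR adjusted p = 0.00103). GSDMB, a pore-forming gasdermin, rose from 19.8 ± 0.559 to 35.2 ± 1.1999 CPM (log2 fold change 0.83, SE 0.11, edgeR adjusted p = 3.85e-05). Among p53 targets, 4 of 26 tested members rose and 1 fell (median log2 fold change 0.094). The stress cytokine GDF15 rose from 11.6 ± 3.34 to 26.3 ± 2.96 CPM (log2 fold change 1.18, SE 0.17, edgeR adjusted p = 1.68e-04). The cell cycle inhibitor CDKN1A rose from 73.2 ± 6.84 to 111 ± 4.98 CPM (log2 fold change 0.60, SE 0.11, edgeR adjusted p = 0.00150). The BH3-only gene PMAIP1 (0.76) and the ribonucleotide reductase subunit RRM2B (0.54, kept in 2 of 6) rose as well.

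PARP1, a target of the drug, did not pass the test, while interferon-induced PARPs rose. PARP1 measured 444, 443 and 457 CPM in the untreated libraries and 481, 485 and 512 CPM at 24 h (log2 fold change 0.14, SE 0.075, edgeR adjusted p = 0.280). Its 24 h libraries all lay slightly above the untreated ones, without a call. In the PARP family, 7 of 18 tested members rose and 0 fell (median log2 fold change 0.36). PARP14, an ADP-ribosyltransferase induced by interferon, measured 373, 255 and 296 CPM in the untreated libraries and 668, 670.4 and 752 CPM at 24 h (log2 fold change 1.18, SE 0.13, edgeR adjusted p = 4.40e-06). Its relatives PARP9 and PARP12 rose as well, PARP9 from 175 ± 22.1 to 351 ± 16.3 CPM (log2 fold change 1.01, SE 0.11, edgeR adjusted p = 3.25e-06). PARP12 rose from 116 ± 6.78 to 169.6 ± 2.93 CPM (log2 fold change 0.54, SE 0.086, edgeR adjusted p = 3.28e-04). ZC3HAV1, the antiviral protein ZAP that binds CpG-rich RNA, rose from 124 ± 22.3 to 197 ± 12.4 CPM (log2 fold change 0.67, SE 0.12, edgeR adjusted p = 0.00159).

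BRCA1 itself measured 166, 122 and 127 CPM in the untreated libraries and 155, 159 and 169 CPM at 24 h, which overlapped (log2 fold change 0.22, SE 0.11, edgeR adjusted p = 0.242). Counts per gene do not separate the transfected from the endogenous transcript. In the homologous recombination and Fanconi list 4 of 38 members rose and 0 fell, with a median log2 fold change of 0.27. The helicase BRIP1, a partner of BRCA1, rose from 25.9 ± 6.54 to 46.1 ± 2.25 CPM (log2 fold change 0.83, SE 0.18, edgeR adjusted p = 0.00750, kept in 5 of 6). The nuclease EXO1 rose from 74.3 ± 9.54 to 104 ± 5.55 CPM (log2 fold change 0.48, SE 0.10, edgeR adjusted p = 0.00583). FANCD2 (0.39) and FANCI (0.53, kept in 4 of 6), the pair that is ubiquitinated at crosslinks, rose too. Untreated replicate 1 had the highest list median of the untreated libraries. Without it the count was 15 higher and 1 lower, where 8.35% and 9.33% of all genes were called. After the GC and length correction it was 11 higher and 0 lower, where 7.42% and 9.37% of all genes were called. In base excision and end joining, 3 of 29 tested members rose and 2 fell (median log2 fold change 0.10). POLQ (0.47, kept in 1 of 6), LIG1 (0.35, kept in 3 of 6) and UNG (0.29, kept in 2 of 6) rose, and PAXX (-0.73, kept in 1 of 6) was among those that fell.

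Part of the S phase genes rose and part of the mitosis genes fell. Of 49 genes of DNA replication 12 rose and 0 fell (median log2 fold change 0.21, 45 of 49 positive). Of 48 genes of G2 and mitosis 0 rose and 15 fell (median -0.24). Of the 12 rises and 15 falls, 7 and 10 held in all 6 fits that left out 1 library. After the GC and length correction the counts were 19 higher and 0 lower for replication and 0 higher and 32 lower for mitosis. Of all genes, 7.42% were then higher and 9.37% lower. Without untreated replicate 1 they were 18 higher and 0 lower for replication and 2 higher and 14 lower for mitosis. The mitosis median was then -0.14, and 8.35% of all genes were higher and 9.33% lower. Ribonucleotide reductase RRM2, which makes deoxynucleotides, measured 237, 214 and 195 CPM in the untreated libraries and 319, 321 and 314 CPM at 24 h (log2 fold change 0.56, SE 0.085, edgeR adjusted p = 2.25e-04). Its partner RRM1 measured 107, 95.1 and 79.9 CPM in the untreated libraries and 136, 138 and 143 CPM at 24 h (log2 fold change 0.56, SE 0.11, edgeR adjusted p = 0.00207). CCNE2, a cyclin of the G1 to S transition, rose from 31.5 ± 3.94 to 56.002 ± 0.954 CPM (log2 fold change 0.83, SE 0.16, edgeR adjusted p = 0.00197). The origin recognition subunit ORC1 rose from 48.6 ± 4.27 to 71.7 ± 4.97 CPM (log2 fold change 0.56, SE 0.088, edgeR adjusted p = 3.28e-04). Their treated and untreated libraries were apart.

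On the mitotic side CDC20, the activator of the anaphase-promoting complex, measured 367, 475 and 459.5 CPM in the untreated libraries and 221, 215 and 191 CPM at 24 h (log2 fold change -1.05, SE 0.12, edgeR adjusted p = 4.95e-06). PLK1, a kinase of mitotic entry, measured 146, 175 and 186 CPM in the untreated libraries and 94.1, 92.5 and 89.3 CPM at 24 h (log2 fold change -0.88, SE 0.097, edgeR adjusted p = 4.95e-06). Cyclin B1, CCNB1, fell from 122 ± 13.2 to 74.6 ± 6.95 CPM (log2 fold change -0.71, SE 0.097, edgeR adjusted p = 7.18e-05). The spindle kinase AURKA fell from 155 ± 11.3 to 104 ± 1.38 CPM (log2 fold change -0.57, SE 0.086, edgeR adjusted p = 2.05e-04). UBE2S, an E2 enzyme of the same complex as CDC20, fell from 501 ± 129 to 235 ± 22.8 CPM (log2 fold change -1.095, SE 0.16, edgeR adjusted p = 1.38e-04). Every treated library was below every untreated one in each of these genes. Of 57 listed clustered histone genes 34 were tested, 0 rose and 2 fell, H2AC6 (-0.38, kept in 1 of 6) and H2BC8 (-0.76, kept in 2 of 6).

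**Figure D3:**
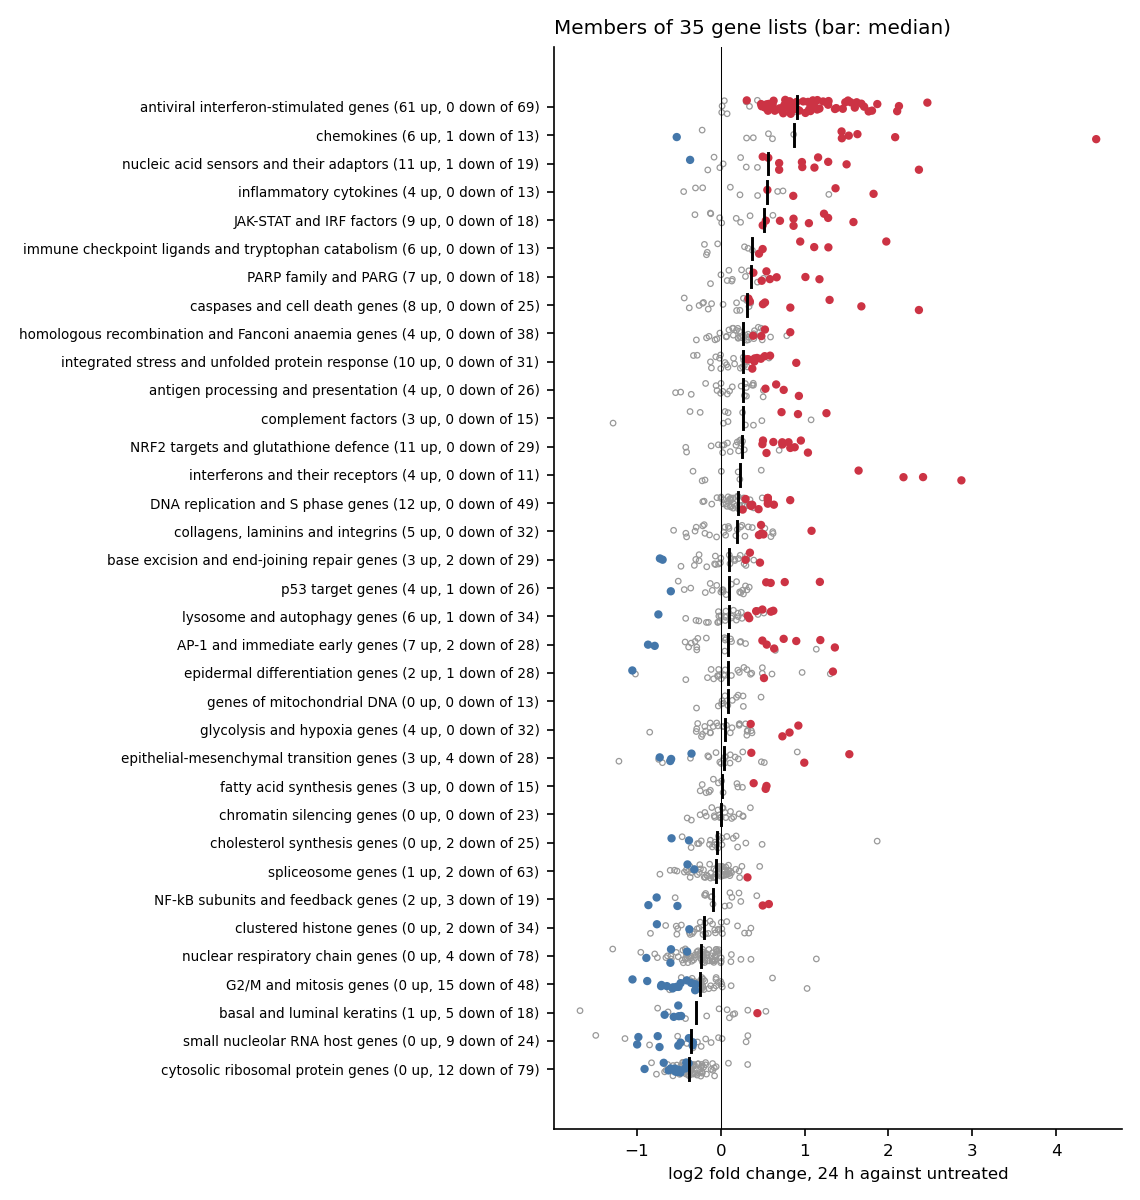
Each row is a gene list and each point a tested member at its log2 fold change at 24 h against untreated; filled points were called (red higher, blue lower), open points were not, and the black bar is the median. In this fit the antiviral list has the highest median at 0.91 and the ribosomal protein list the lowest of those shown at -0.38. After the GC and length correction chemokines (0.90) and small nucleolar RNA host genes (-0.44) take these places.

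Genes of the translation machinery lay slightly lower as a group. Of 79 cytosolic ribosomal protein genes 0 rose and 12 fell, 77 had a negative log2 fold change, and the median was -0.38. Of the 12 calls, 0 held in all 6 fits that left out 1 library. RPL3 measured 899, 1203 and 1027 CPM in the untreated libraries and 726, 751 and 699 CPM at 24 h (log2 fold change -0.52, SE 0.12, edgeR adjusted p = 0.00784, kept in 5 of 6). RPL13A measured 1019.9, 1535 and 1194 CPM in the untreated libraries and 867, 933 and 770.5 CPM at 24 h (log2 fold change -0.54, SE 0.15, edgeR adjusted p = 0.0252, kept in 3 of 6). RPL37 (-0.62, kept in 1 of 6) and RPS29 (-0.91, kept in 1 of 6) fell too. Untreated replicate 1 had the lowest list median of the untreated libraries. The count was 0 higher and 50 lower without that library, where 8.35% and 9.33% of all genes were called. After the GC and length correction it was 0 higher and 42 lower, where 7.42% and 9.37% of all genes were called. Many ribosomal protein genes have processed pseudogenes that can share their reads.

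The host genes of small nucleolar RNAs, spliced transcripts that like ribosomal protein mRNAs begin with a pyrimidine tract, had 0 rises and 9 falls among 24 tested (median log2 fold change -0.36). Of the 9 calls, 0 held in all 6 fits that left out 1 library. The count was 0 higher and 15 lower after the GC and length correction (median -0.44) and 1 higher and 13 lower without untreated replicate 1. Of all genes, 7.42% were higher and 9.37% lower under the first setting and 8.35% and 9.33% under the second. SNHG29 fell from 113 ± 9.999 to 81.1 ± 4.75 CPM (log2 fold change -0.48, SE 0.11, edgeR adjusted p = 0.00775, kept in 4 of 6). SNHG8 (-0.98, kept in 3 of 6), SNHG7 (-0.73, kept in 2 of 6) and SNHG3 (-0.38, kept in 3 of 6) fell too. Nuclear genes of the respiratory chain had 0 rises and 4 falls among 78 (median -0.23). Those that fell were NDUFS6 (-0.89), CYC1 (-0.60), ATP5MC1 (-0.59) and ATP5MC2 (-0.40), subunits of the chain and of ATP synthase. Of the fits that left out 1 library they were called only in that without untreated replicate 1, where the list had 0 higher and 29 lower. After the GC and length correction it had 1 higher and 12 lower. The shares over all genes under both settings are those given above for the host genes. The 13 protein genes of mitochondrial DNA had 0 calls in edgeR's test. MT-CO1, a subunit of cytochrome c oxidase, measured 11756, 10994 and 10659.7 CPM in the untreated libraries and 12061, 12617 and 13347 CPM at 24 h (log2 fold change 0.19, SE 0.11, edgeR adjusted p = 0.336). MT-CO2, another subunit, measured 6641, 6823 and 5950.2 CPM in the untreated libraries and 7348, 7839 and 8196 CPM at 24 h (log2 fold change 0.27, SE 0.14, edgeR adjusted p = 0.270).

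Splicing factors remove introns from transcripts, and their genes were among those the study asked about. Of 63 spliceosome genes 1 rose and 2 fell, where 4.71% and 3.55% of all genes did. The one that rose was SRSF3, a splicing activator, which went from 292 ± 26.9 to 363 ± 9.98 CPM (log2 fold change 0.32, SE 0.092, edgeR adjusted p = 0.0373, kept in 2 of 6). SRSF3 was not called after the GC and length correction (edgeR adjusted p = 0.403). The RNA-binding protein gene HNRNPC fell from 684 ± 52.1 to 519 ± 30.3 CPM (log2 fold change -0.40, SE 0.087, edgeR adjusted p = 0.00646, kept in 5 of 6), and the Sm core subunit SNRPD3 fell as well (-0.32, kept in 2 of 6). SF3B1, the branch site subunit, measured 841, 650.1 and 705 CPM in the untreated libraries and 815, 846 and 894 CPM at 24 h, which overlapped (log2 fold change 0.22, SE 0.10, edgeR adjusted p = 0.194). Its untreated replicate 1 carried the highest untreated value. The list had 4 higher and 15 lower without that library, where 8.35% and 9.33% of all genes were called. After the correction it had 1 higher and 13 lower, where 7.42% and 9.37% of all genes were called.

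Part of the oxidative defence genes rose. Of 29 tested NRF2 targets and glutathione genes 11 rose and 0 fell (median log2 fold change 0.25). GCLM, the modifier subunit of the enzyme that starts glutathione synthesis, measured 124, 105 and 89.1 CPM in the untreated libraries and 159, 168 and 164 CPM at 24 h (log2 fold change 0.63, SE 0.12, edgeR adjusted p = 0.00192). The catalytic subunit GCLC rose from 51.2 ± 4.28 to 72.6 ± 1.03 CPM (log2 fold change 0.50, SE 0.090, edgeR adjusted p = 0.00119). AKR1C1 rose from 178 ± 8.01 to 296 ± 5.76 CPM (log2 fold change 0.73, SE 0.12, edgeR adjusted p = 5.75e-04). AKR1C2 rose from 97.97 ± 6.43 to 180.5 ± 6.05 CPM (log2 fold change 0.88, SE 0.12, edgeR adjusted p = 9.17e-05). These encode nearly identical reductases, and reads may be split between them. The antioxidant element letters TGACNNNGC, searched on both strands, were in the promoter windows of 3 of 8 members that rose and 4 of 13 other tested members. They were in those of 23.3% of all genes that were higher and of 19.1% of all genes tested.

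In the integrated stress and unfolded protein list 10 of 31 tested members rose and 0 fell (median log2 fold change 0.27). ATF3, a stress-induced repressor, rose from 11.7 ± 0.500 to 21.8 ± 2.12 CPM (log2 fold change 0.90, SE 0.11, edgeR adjusted p = 1.15e-05). The disulfide isomerase PDIA4 rose from 171 ± 6.62 to 226 ± 7.86 CPM (log2 fold change 0.40, SE 0.078, edgeR adjusted p = 0.00237). The chaperone DNAJC3 (0.48) and HERPUD1 (0.43), of endoplasmic reticulum degradation, rose too. In glycolysis and hypoxia, 4 of 32 tested members rose and 0 fell (median log2 fold change 0.052). NDRG1, a hypoxia-induced gene, rose from 67.8 ± 10.4 to 129 ± 4.13 CPM (log2 fold change 0.93, SE 0.13, edgeR adjusted p = 9.23e-05). PFKFB4 (0.82, kept in 4 of 6), CA12 (0.73, kept in 3 of 6) and BNIP3 (0.36, kept in 1 of 6) were the others.

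In fatty acid synthesis, 3 of 15 tested members rose and 0 fell (median log2 fold change 0.0100). The acyl-CoA synthetase ACSL1 rose from 114 ± 6.89 to 165 ± 6.99 CPM (log2 fold change 0.53, SE 0.080, edgeR adjusted p = 1.94e-04). The malic enzyme ME1 rose from 119.8 ± 20.7 to 175 ± 3.41 CPM (log2 fold change 0.54, SE 0.12, edgeR adjusted p = 0.00560), and ACSS2 was the third (0.39, kept in 1 of 6). Of the cholesterol genes 0 of 25 tested members rose and 2 fell (median log2 fold change -0.045). The master factor SREBF2 fell from 315 ± 37.2 to 242 ± 11.6 CPM (log2 fold change -0.38, SE 0.097, edgeR adjusted p = 0.0193, kept in 2 of 6), and the kinase PMVK fell as well (-0.59, kept in 1 of 6). In the lysosome and autophagy list 6 of 34 tested members rose and 1 fell (median log2 fold change 0.092). GABARAPL1, a protein of the autophagosome, rose from 29.2 ± 1.996 to 45.01 ± 2.36 CPM (log2 fold change 0.63, SE 0.095, edgeR adjusted p = 2.27e-04). The protease CTSL rose from 34.9 ± 3.16 to 52.8 ± 3.18 CPM (log2 fold change 0.60, SE 0.12, edgeR adjusted p = 0.00279). The galactosidase GLA rose (0.50, kept in 4 of 6), and the lysosomal regulator TFEB fell (-0.75, kept in 3 of 6).

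Epithelial identity genes changed in part. In the keratin list 1 of 18 tested members rose and 5 fell (median log2 fold change -0.30). KRT7 measured 1647, 2187 and 1884 CPM in the untreated libraries and 1263, 1244 and 1084 CPM at 24 h (log2 fold change -0.67, SE 0.12, edgeR adjusted p = 9.43e-04). KRT18, a keratin of simple epithelia, measured 1079, 1407 and 1139 CPM in the untreated libraries and 817, 867 and 772 CPM at 24 h (log2 fold change -0.56, SE 0.12, edgeR adjusted p = 0.00466). Its pairing partner KRT8, with the most counts of the list, fell from 3799 ± 573 to 2684 ± 154 CPM (log2 fold change -0.50, SE 0.11, edgeR adjusted p = 0.00705, kept in 4 of 6). KRT80 fell from 127 ± 13.7 to 89.3 ± 2.53 CPM (log2 fold change -0.51, SE 0.096, edgeR adjusted p = 0.00200). No treated library reached the untreated range in any of these keratins. KRT75, a keratin of hair follicles outside the list, fell from 2.399 ± 0.0671 to 0.736 ± 0.162 CPM (log2 fold change -1.69, SE 0.36, edgeR adjusted p = 0.00923).

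Among epidermal differentiation genes, 2 of 28 tested members rose and 1 fell (median log2 fold change 0.089). The cornified envelope gene SPRR1B rose from 1.92 ± 0.248 to 4.87 ± 0.566 CPM (log2 fold change 1.34, SE 0.26, edgeR adjusted p = 0.00605), and the desmosomal DSG3 rose by less (0.51, kept in 2 of 6). S100A2, a calcium-binding protein of basal cells, measured 189, 487 and 407 CPM in the untreated libraries and 191, 188 and 141 CPM at 24 h (log2 fold change -1.06, SE 0.24, edgeR adjusted p = 0.00843, kept in 4 of 6). Its untreated replicate 1 lay within the treated range. In the epithelial-mesenchymal list 3 of 28 tested members rose and 4 fell (median log2 fold change 0.040). Fibronectin FN1 rose from 35.7 ± 8.65 to 71.3 ± 9.94 CPM (log2 fold change 0.996, SE 0.18, edgeR adjusted p = 0.00116). The epithelial splicing factor ESRP2 fell from 76.8 ± 10.3 to 50.9 ± 2.66 CPM (log2 fold change -0.59, SE 0.12, edgeR adjusted p = 0.00433), and so did the receptor kinase AXL (-0.60, kept in 3 of 6).

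For matrix and adhesion, 5 of 32 tested members rose and 0 fell (median log2 fold change 0.19). The laminin chain LAMA3 measured 86.1, 61.6 and 83.4 CPM in the untreated libraries and 165, 156 and 169 CPM at 24 h (log2 fold change 1.08, SE 0.13, edgeR adjusted p = 9.47e-06). Its receptor chains ITGA6 (0.51, kept in 5 of 6) and ITGB4 (0.49, kept in 1 of 6) and the hemidesmosomal collagen COL17A1 (0.45, kept in 1 of 6) rose too. The count of this list was 14 higher and 4 lower after the GC and length correction and 6 higher and 2 lower without untreated replicate 1. Of all genes, 7.42% were higher and 9.37% lower under the first setting and 8.35% and 9.33% under the second. Among immediate early genes, 7 of 28 tested members rose and 2 fell (median log2 fold change 0.089). The ERK phosphatase DUSP6 rose from 5.397 ± 0.632 to 13.9 ± 0.989 CPM (log2 fold change 1.36, SE 0.18, edgeR adjusted p = 5.07e-05). CCN2, a secreted matricellular protein, rose from 6.08 ± 0.452 to 13.9 ± 0.610 CPM (log2 fold change 1.19, SE 0.14, edgeR adjusted p = 1.50e-05). Its relative CCN1 fell from 67.8 ± 8.67 to 39.2 ± 1.76 CPM (log2 fold change -0.79, SE 0.11, edgeR adjusted p = 1.21e-04). Of 23 chromatin silencing genes 0 were called by edgeR's test. The one with the most counts, TRIM28, a corepressor of retroelements, measured 894, 1383 and 1313 CPM in the untreated libraries and 948, 968 and 896 CPM at 24 h (log2 fold change -0.35, SE 0.14, edgeR adjusted p = 0.128). The DNA methyltransferase DNMT1 had a log2 fold change of 0.026 (edgeR adjusted p = 0.912). Both overlapped between the groups.

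**Figure D4:**
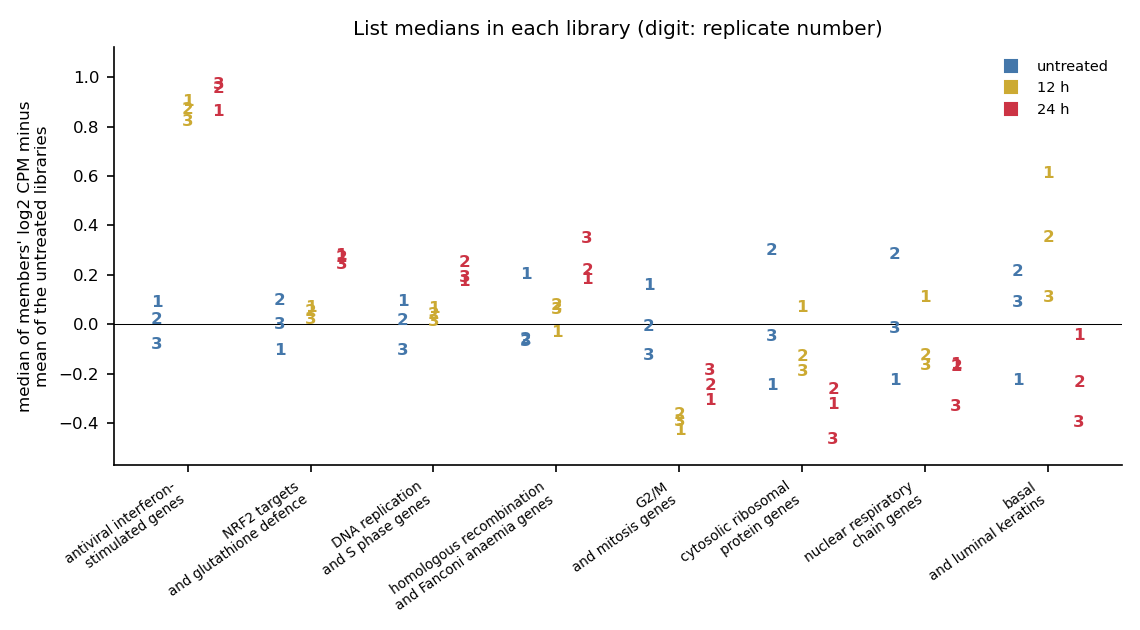
The y axis gives, for 8 gene lists, the median over members of the log2 CPM of a library minus the mean of the 3 untreated libraries; digits are replicate numbers, coloured by time. The antiviral list of every treated library lies at 0.82 or more. Untreated replicate 1 lies at -0.23 between the 24 h libraries for respiratory chain genes and at -0.25 just above them for ribosomal protein genes.

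Further list counts moved with the settings and are given here as genes higher and lower, first after the GC and length correction and then without untreated replicate 1. The p53 targets had 6 and 3, then 6 and 4, and the cell death genes 10 and 0, then 10 and 3. Base excision and end joining had 4 and 4, then 5 and 4, and clustered histones 1 and 4, then 0 and 4. Glycolysis and hypoxia genes had 7 and 2, then 7 and 2, and cholesterol genes 0 and 2, then 1 and 5. Lysosome and autophagy genes had 10 and 2, then 7 and 4, and immediate early genes 10 and 3, then 7 and 5. Keratins had 3 and 6, then 1 and 7, and epidermal genes 5 and 2, then 3 and 1. Chromatin silencing genes had 0 and 4, then 2 and 2. Of all genes, 7.42% were higher and 9.37% lower under the first setting and 8.35% and 9.33% under the second.

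The remaining called members of the small counts above were named after their values were seen. Those that fell were the chemokine CXCL16 (log2 fold change -0.53), the signalling adaptor TRAF3 (-0.37), the NF-kB inhibitor TNIP2 (-0.52) and the p53 target GADD45A (-0.60). The end-joining factor NHEJ1 (-0.69), the growth factor TGFB2 (-0.73) and the ETS factor ETV4 (-0.87) fell too. Those that rose were the basal keratin KRT15 (0.44), the collagen chain COL6A1 (0.48) and the matrix protein TGFBI (0.36).

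Outside these lists, IQSEC3, an exchange factor of ARF GTPases known from inhibitory synapses (chr12:66765-178460), had the largest fitted rise among the named genes. It went from 4 counts in the untreated libraries, with 0 in replicate 1, to 162 counts at 24 h, or 3.81, 3.81 and 2.33 CPM. IQSEC3 had a log2 fold change of 5.199 (SE 0.63, edgeR adjusted p = 1.25e-04), and at so few counts the fitted fold depends on the offset added to them. BCL2L14, a BCL2 family gene, rose from 0.269 ± 0.0936 to 2.09 ± 0.269 CPM (log2 fold change 2.92, SE 0.47, edgeR adjusted p = 0.00128). RIPOR2 rose from 0.477 ± 0.136 to 3.13 ± 1.35 CPM (log2 fold change 2.698, SE 0.45, edgeR adjusted p = 0.00115). The ERBB ligand NRG2 rose from 0.455 ± 0.130 to 2.701 ± 0.538 CPM (log2 fold change 2.55, SE 0.38, edgeR adjusted p = 1.65e-04). CYP24A1, which inactivates vitamin D, measured 1.05, 1.11 and 0.504 CPM in the untreated libraries and 4.18, 4.48 and 5.09 CPM at 24 h (log2 fold change 2.36, SE 0.24, edgeR adjusted p = 2.48e-06). PATL2, an RNA-binding protein, measured 0.616, 1.91 and 0.756 CPM in the untreated libraries and 5.35, 5.53 and 5.702 CPM at 24 h (log2 fold change 2.33, SE 0.40, edgeR adjusted p = 7.97e-04). Every treated library stood above every untreated one in CYP24A1 and PATL2, which the rule that named them required.

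The largest falls among the named protein-coding genes were in PDLIM2 and in genes with low levels, and ACTG1 and TPM1 led among genes with a mean of at least 100 CPM. PDLIM2, a PDZ and LIM protein that promotes degradation of nuclear RELA, measured 15.02, 26.4 and 22.3 CPM in the untreated libraries and 4.36, 4.54 and 5.52 CPM at 24 h (log2 fold change -2.14, SE 0.23, edgeR adjusted p = 3.15e-06). ACTG1, cytoplasmic gamma-actin, measured 1742, 2143 and 1988 CPM in the untreated libraries and 748, 712 and 698 CPM at 24 h (log2 fold change -1.44, SE 0.093, edgeR adjusted p = 2.49e-09), and shares long stretches with other actin genes. TPM1, tropomyosin, measured 346, 336 and 286 CPM in the untreated libraries and 124, 134 and 129 CPM at 24 h (log2 fold change -1.33, SE 0.098, edgeR adjusted p = 1.92e-08). In all of them every treated library was below every untreated one, which the rule that named them required.

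ENOX1 fell from 5.62 ± 0.418 to 1.78 ± 0.523 CPM (log2 fold change -1.66, SE 0.21, edgeR adjusted p = 3.96e-05). TMEM158 fell from 7.06 ± 1.94 to 2.56 ± 1.101 CPM (log2 fold change -1.46, SE 0.30, edgeR adjusted p = 0.00344). RAB32, a small GTPase of lysosome-related organelles, fell from 8.31 ± 3.301 to 3.17 ± 0.499 CPM (log2 fold change -1.39, SE 0.26, edgeR adjusted p = 0.00160). The natriuretic peptide receptor NPR1 fell from 10.8 ± 2.28 to 4.09 ± 1.44 CPM (log2 fold change -1.39, SE 0.21, edgeR adjusted p = 2.01e-04). Sciellin, SCEL, of the cornified envelope, fell from 4.48 ± 1.25 to 1.78 ± 0.246 CPM (log2 fold change -1.33, SE 0.29, edgeR adjusted p = 0.00818). AXIN2 fell from 2.61 ± 0.470 to 0.982 ± 0.163 CPM (log2 fold change -1.401, SE 0.29, edgeR adjusted p = 0.00404). NOTUM, like AXIN2 a feedback inhibitor of Wnt signalling, fell from 3.75 ± 0.982 to 1.47 ± 0.320 CPM (log2 fold change -1.34, SE 0.24, edgeR adjusted p = 0.00117). CCDC85C fell from 178 ± 31.1 to 86.6 ± 7.38 CPM (log2 fold change -1.04, SE 0.13, edgeR adjusted p = 3.85e-05).

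Among non-coding genes LINC02701 rose from 0.268 ± 0.127 to 2.46 ± 0.555 CPM (log2 fold change 3.16, SE 0.45, edgeR adjusted p = 1.68e-04). The interferon lambda pseudogene IFNL3P1 rose from 0.248 ± 0.123 to 1.84 ± 0.887 CPM (log2 fold change 2.85, SE 0.55, edgeR adjusted p = 0.00403) and can share reads with the IFNL genes. TM4SF18-AS1 rose from 0.351 ± 0.0691 to 2.13 ± 0.643 CPM (log2 fold change 2.57, SE 0.45, edgeR adjusted p = 0.00236). As strandedness is not given, its reads and those of its sense partner cannot be told apart. WFDC21P fell from 42.1 ± 10.96 to 10.3 ± 2.21 CPM (log2 fold change -2.03, SE 0.22, edgeR adjusted p = 3.46e-06). LINC00707 (-1.32) and LINC01315 (-1.16) fell too.

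The second comparison asked what still changed between 12 h and 24 h. In the fit without GC correction, most antiviral genes had no call between the times. Some keratins were lower in that fit and some replication and NRF2 genes higher at 24 h. Against the 12 h libraries of the same line, 145 genes were higher (0.791%) and 158 lower (0.862%) at 24 h by edgeR's test. This comparison shares the treated libraries with the one above. Leaving out any 1 of the 6 libraries reduced these counts to between 25 and 53 higher and between 38 and 58 lower. Fitting only the 6 libraries compared gave 1434 higher and 1774 lower, and the GC and length correction gave 412 and 346, which turns the split to mostly higher. In the uncorrected fit over all 18 libraries the 69 antiviral genes had 2 higher and 3 lower and a median of 0.082. Both counts lie above the shares over all genes. List counts against 12 h are given for that fit only, and genes without a call may still differ. The Spearman correlations with GC content, taken as above, were 0.54, 0.18 and 0.21 in the 12 h libraries. Those of the 24 h libraries were -0.29, -0.39 and -0.44, so the GC trends of the libraries differed with time. Their part in these list counts was not tested. The NRF2 list had 7 higher and 0 lower of 29 and the S phase list 7 higher and 0 lower of 49. The mitosis list had 0 higher and 0 lower of 48 by edgeR's test, the keratins 0 higher and 8 lower of 18 and the chemokines 0 higher and 3 lower of 13. Named after their values were seen, the antiviral genes higher than at 12 h were HERC5 (0.49) and IFIT2 (0.47), and those lower were the guanylate-binding proteins GBP1 (-0.93) and GBP2 (-0.82) and KLHDC7B (-0.51). The chemokines lower were CXCL10, CCL28 (-0.72) and CXCL16 (-0.63).

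CXCL10 stood at 39.7, 45.4 and 40.4 CPM at 12 h and was lower at 24 h (log2 difference -1.55, SE 0.20, edgeR adjusted p = 8.55e-04), with no overlap. GCLM stood at 88.9, 96.2 and 106 CPM at 12 h and was higher at 24 h (log2 difference 0.75, SE 0.12, edgeR adjusted p = 0.00224). RRM1 (log2 difference 0.58, SE 0.11, edgeR adjusted p = 0.00712) and RRM2 (log2 difference 0.45, SE 0.085, edgeR adjusted p = 0.00945) were higher as well. So were LAMA3 (log2 difference 0.68, SE 0.12, edgeR adjusted p = 0.00748) and SRSF3 (log2 difference 0.49, SE 0.093, edgeR adjusted p = 0.00945). ACTG1 stood at 1604, 1548 and 1504 CPM at 12 h and was lower at 24 h (log2 difference -1.11, SE 0.092, edgeR adjusted p = 1.71e-06). PDLIM2 (log2 difference -1.36, SE 0.23, edgeR adjusted p = 0.00357) and NPR1 (log2 difference -1.62, SE 0.21, edgeR adjusted p = 3.61e-04) were lower too. NFKB2 (log2 difference -0.80, SE 0.13, edgeR adjusted p = 0.00224) and WFDC21P (log2 difference -2.45, SE 0.22, edgeR adjusted p = 3.11e-06) also belonged to the genes lower at 24 h. KRT75 stood at 7.98, 4.11 and 4.58 CPM at 12 h, above its untreated values, and was lower at 24 h (log2 difference -2.902, SE 0.34, edgeR adjusted p = 8.55e-04).

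The last comparison asked whether the 24 h effect differed from that in the libraries labelled HCC1937-EV, with the reservation on their label given above. Part of the antiviral genes rose more in HCC1937-OE-BRCA1, and most ribosomal protein and respiratory chain genes had a lower fold change there. The difference of the effects was above 0 for 1496 genes (8.16%) and below 0 for 2058 (11.2%) by the interaction term of edgeR's test. Leaving out 1 library moved these counts to between 782 and 2630 and between 1280 and 2872. Both were highest without untreated HCC1937-OE-BRCA1 replicate 1 and lowest without replicate 2. Of 69 antiviral genes 30 higher and 2 lower were called for the difference, and of 19 sensors and adaptors 8 higher and 1 lower. The median difference of the antiviral list was 0.92, and a missing call does not show that the effects were alike. The counts were 0 higher and 55 lower of 79 ribosomal protein genes and 0 higher and 48 lower of 78 respiratory chain genes. The median difference was -0.77 and -0.70 in these lists, against median log2 fold changes of -0.38 and -0.23 within HCC1937-OE-BRCA1. These differences are larger than the falls in that line and take in changes in HCC1937-EV. For the cell cycle lists the counts were 1 higher and 15 lower of 48 mitosis genes and 16 higher and 1 lower of 49 S phase genes. Of the genes named here 17 had no count in the 6 untreated and 24 h HCC1937-EV libraries, among them IFNL1, RSAD2, CXCL10, IDO1, ZBP1 and IFNB1, and their difference could not be measured. PARP14 (1 count untreated and 1 at 24 h), RIGI (3 and 5) and TNFSF10 (18 and 28) had few counts there and no call for the difference. Named after their values were seen, the exceptions to the direction of their list were IFI6 (-1.56), PARP10 (-0.82), TRAF3 (-0.44), the proliferation marker MKI67 (0.70) and the thymidine kinase TK1 (-0.96).

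HERC5 had a difference of the log2 fold changes of 2.08 (SE 0.16, edgeR adjusted p = 5.06e-07). In HCC1937-EV it stood at 25.1 ± 1.82 CPM untreated and at 21.6 ± 0.657 CPM at 24 h, with no call (edgeR adjusted p = 0.227). OAS1 had a difference of 1.35 (SE 0.12, edgeR adjusted p = 1.52e-06). Its HCC1937-EV levels were 30.4 ± 0.647 and 28.99 ± 1.16 CPM, also with no call (edgeR adjusted p = 0.646). IFIT2 rose in both, with a log2 fold change of 1.16 in HCC1937-EV and a difference of 1.31 (SE 0.18, edgeR adjusted p = 1.36e-04). IFI16 was lower at 24 h in HCC1937-EV (29.02 ± 1.66 to 16.9 ± 1.4002 CPM), and its difference was 1.94 (SE 0.21, edgeR adjusted p = 2.20e-05). STAT2 differed by 1.17 (SE 0.12, edgeR adjusted p = 1.13e-05) and WARS1 by 1.12 (SE 0.11, edgeR adjusted p = 1.13e-05). IFIH1 differed by 1.24 (SE 0.22, edgeR adjusted p = 0.00144).

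Among genes that fell, ACTG1 differed by -1.44 (SE 0.13, edgeR adjusted p = 1.69e-06) and stood at 3172 ± 113 and 3167 ± 167 CPM in HCC1937-EV. PDLIM2 differed by -2.701 (SE 0.31, edgeR adjusted p = 2.60e-05). TPM1 differed by -1.21 (SE 0.14, edgeR adjusted p = 2.71e-05) and CDC20 by -1.26 (SE 0.16, edgeR adjusted p = 1.11e-04). None of them was called lower in HCC1937-EV. BRCA1, called in neither line alone, differed by 0.54 (SE 0.16, edgeR adjusted p = 0.0230). SF3B1 differed by 0.61 (SE 0.14, edgeR adjusted p = 0.00676), TBK1 by 0.71 (SE 0.23, edgeR adjusted p = 0.0353) and IRF3 by -0.81 (SE 0.23, edgeR adjusted p = 0.0196).

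**Figure D5:**
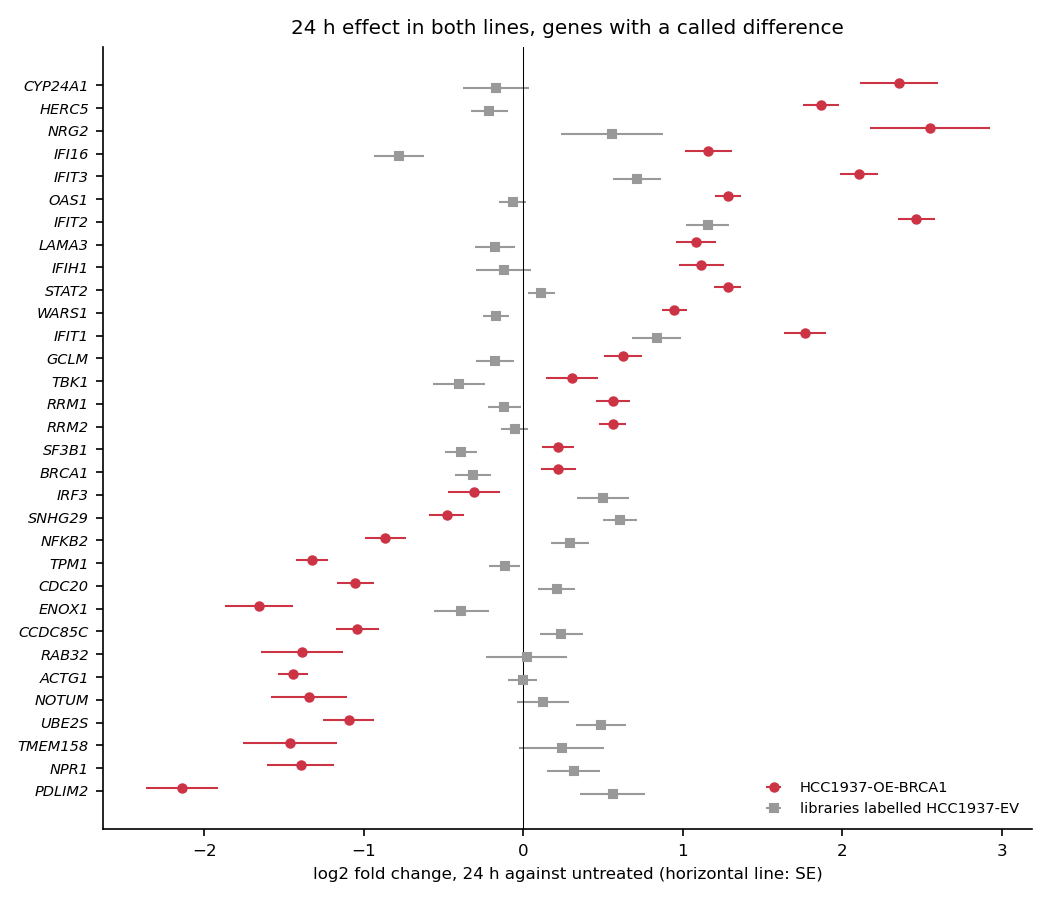
The x axis gives the log2 fold change at 24 h against untreated of 32 named genes whose effect differed between HCC1937-OE-BRCA1 (red circles) and the libraries labelled HCC1937-EV (grey squares), with horizontal lines of 1 SE. IFIT2 lies above 0 in both, at 2.46 and 1.16, while ACTG1 lies at -1.44 in HCC1937-OE-BRCA1 and near 0 in HCC1937-EV.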

How the data were processed

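RNA was extracted with TRIzol and libraries were made with the NEBNext Ultra II kit. Gene counts were deposited by the authors unnormalized, in a joint table and in 18 tables of single libraries whose values equal its columns. The submitters' processing notes name HISAT2, featureCounts, DESeq2 and GRCh38, and versions, annotation and strandedness are not given in the sources used here. Groups were taken from the sample titles. Positions and gene types came from GENCODE 29, where 96.6% of gene identifiers were found, and symbols were matched for 99.7%.

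Counts were normalized with TMM, filtered with filterByExpr by group and tested with the quasi-likelihood test of edgeR 4.0.16 in R 4.3.3, with one mean per group over all 18 libraries and a Benjamini-Hochberg adjusted p under 0.05 over all genes tested. The biological coefficient of variation was 12.9%. Levels are CPM with TMM library sizes, given per library in replicate order or as mean ± SD (n = 3), which covers counting error and the spread between libraries. Depth was similar in all libraries, and genes under about 1 CPM rest on few counts. For the GC and length correction a smooth trend per library (mgcv 1.9.3) entered as an offset for 18068 genes. The script was tested on simulated data.

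The gene lists, the markers and the rules for named genes were chosen with earlier results of these data known. Named are the 10 largest protein-coding rises and falls among called genes with a mean of at least 1 CPM, no overlap and a call in all 6 fits without 1 library, the 5 largest at 100 CPM or more, up to 4 called members per list by adjusted p or else the 2 most abundant, 16 genes of the study's question, 3 non-coding genes per direction, and up to 5 per direction for the other comparisons. Alternatives were DESeq2's size factors, DESeq2's Wald test (1.42.0), no filter, an absolute log2 fold change over 1, a minimum of 10 counts per library, only the libraries compared, only the 9 libraries of the line, a replicate block, the GC and length correction, both together, and each library left out. A few genes and marker values that the rules select are not reported here. Promoter windows came from RefSeq on GRCh38.p14.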

Additional observations from a re-analysis of the deposited data

Results flagged for a closer look

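For 32 of the named genes the 24 h effect differed between HCC1937-OE-BRCA1 and the libraries labelled HCC1937-EV by the interaction term of edgeR's test, out of 104 named genes with such a call, where 8.16% of all genes were called above and 11.2% below 0. They are those named for the size of their change, for the study's question or for this comparison. Values are the log2 fold change in HCC1937-OE-BRCA1 minus that in HCC1937-EV, and the label of the HCC1937-EV libraries carries the reservation given in the report.

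Among antiviral and interferon pathway genes the difference was 2.08 for HERC5, 1.94 for IFI16, 1.39 for IFIT3, 1.35 for OAS1, 1.31 for IFIT2, 1.24 for IFIH1, 1.17 for STAT2, 1.12 for WARS1, 0.93 for IFIT1 and 0.71 for TBK1, and it was -0.81 for IRF3. Of these, TBK1 and IRF3 had the largest edgeR adjusted p, 0.0353 and 0.0196. The IFIT genes rose in both lines, by 0.71 to 1.16 on the log2 scale in HCC1937-EV, whereas IFI16 was lower at 24 h there (-0.78, edgeR adjusted p = 0.00521).

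Of genes with other roles, CYP24A1 differed by 2.53, NRG2 by 1.99, LAMA3 by 1.26, GCLM by 0.80, RRM1 by 0.68, RRM2 by 0.61, SF3B1 by 0.61 and BRCA1 by 0.54. Genes with a lower effect in HCC1937-OE-BRCA1 were SNHG29 (-1.09), NFKB2 (-1.16), TPM1 (-1.21), CDC20 (-1.26), ENOX1 (-1.27), CCDC85C (-1.28), RAB32 (-1.41), ACTG1 (-1.44), NOTUM (-1.46), UBE2S (-1.58), TMEM158 (-1.704), NPR1 (-1.71) and PDLIM2 (-2.701). SNHG29 (edgeR adjusted p = 0.00251), UBE2S (0.0444) and IRF3 (0.0488) were called higher at 24 h in HCC1937-EV. The BRCA1 level of HCC1937-OE-BRCA1 was 138 ± 24.04 CPM untreated and 161 ± 7.07 CPM after 24 h, that of HCC1937-EV was 118 ± 7.70 and 94.5 ± 4.47 CPM, and the untreated ranges of the lines overlapped.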

How the results depend on the processing

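Of the 152 named genes with a call at 24 h, none reversed under an alternative. The call was lost by 4 of them under DESeq2's Wald test, 0 under DESeq2's size factors, 2 under the GC and length correction, 3 with only the 9 libraries of the line, 31 with only the libraries compared, 9 without a filter and 15 under the replicate block, and without 1 library by 3, 40 and 29 (untreated replicates 1, 2 and 3) and by 28, 31 and 44 (24 h replicates 1, 2 and 3), where fewer samples were fitted. Counts for 24 h against untreated were 474 higher and 335 lower with only the libraries compared, 1340 and 1693 after the GC and length correction, 236 and 66 past an absolute log2 fold change of 1, and from 428 to 1572 and from 216 to 1757 without 1 library. The genes lower numbered 1367 without a filter and 1071 under DESeq2's Wald test. Against 12 h the counts were 237 and 722 without a filter, 1434 and 1774 with only the libraries compared, 412 and 346 after the correction, 348 and 443 under DESeq2's Wald test, 20 and 25 past an absolute log2 fold change of 1, and from 25 to 53 and from 38 to 58 without 1 library. For the line difference they were 405 and 742 past an absolute log2 fold change of 1, and from 782 to 2630 and from 1280 to 2872 without 1 library. The 61 antiviral calls became 32 past an absolute log2 fold change of 1 and from 54 to 60 without 1 library. Beyond fewer samples in a fit or a stricter threshold, the cause of these shifts was not tested.

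Deviations from the group mean of untreated and 24 h libraries of the same replicate number correlated at -0.15, 0.25 and -0.01 across genes. Those of unlike numbers correlated at between -0.30 and 0.26. The trends of the libraries on GC content enter these deviations, so the correlations cannot show whether replicate numbers pair the libraries. With the replicate block 701 genes were higher and 478 lower against untreated and 91 higher against 12 h. The block together with the GC and length correction gave 1587 lower against untreated and 342 and 295 against 12 h.

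Uncalled genes near 0 changed sign. CGAS stood at -0.019 without a filter, -0.064 under the correction, -0.063 under the correction with the block, and from -0.089 to 0.13 without 1 library, where it was -0.089 without untreated replicate 3 and -0.0084 without 24 h replicate 2. DNMT1 stood at -0.022 without a filter and from -0.026 to 0.099 without 1 library. MAVS ranged from -0.094 to 0.070 without 1 library. NCOR1 stood at -0.078 under the correction, -0.076 with the block added, and from -0.12 to 0.26 without 1 library. Genes lower at 24 h made up 1.09% of the fifth of genes with the lowest GC content and 8.82% of the highest, and 8.71% and 13.6% after the correction. Depth limits the low genes, and 4336 genes had an unadjusted p under 0.05.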

Other observations

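A group outside the fixed lists was noticed among the falls and is described without a test, since its members were chosen after their values were seen. At 24 h in HCC1937-OE-BRCA1 the test called 0 of 28 genes of the actin cytoskeleton higher and 14 lower (median log2 fold change -0.50). Of all genes, 4.71% were higher and 3.55% lower. After the GC and length correction the group had 0 higher and 20 lower, where 7.42% and 9.37% of all genes were called. ACTB, cytoplasmic beta-actin, measured 6246, 7789 and 7394 CPM in the untreated libraries and 3738, 3799 and 3393 CPM at 24 h (log2 fold change -0.97, SE 0.097). SRF, the transcription factor that drives actin genes, measured 90.6, 109.9 and 115 CPM in the untreated libraries and 51.6, 50.8 and 47.2 CPM at 24 h (log2 fold change -1.07, SE 0.11). The tropomyosin TPM4 went from 603 ± 52.2 to 334 ± 8.07 CPM and filamin FLNA from 1995 ± 376 to 1189 ± 93.7 CPM. The treated and untreated libraries of ACTB, SRF, TPM4 and FLNA did not overlap. The coactivators MRTFA (-0.082) and MRTFB (0.11) and the focal adhesion genes TLN1 (-0.076) and VCL (-0.15) were not called. Against 12 h the group had 0 higher and 9 lower.

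Wnt pathway genes, also looked up after the falls of AXIN2 and NOTUM, had 1 call higher and 2 lower among 20 tested. The one that rose was FZD4, a Wnt and norrin receptor, which measured 6.096, 5.61 and 5.35 CPM in the untreated libraries and 24.3, 27.9 and 30.2 CPM at 24 h (log2 fold change 2.27, SE 0.14), while CTNNB1, which encodes beta-catenin, had a log2 fold change of 0.023 with no call.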
